A study of Mus musculus with 6 samples.

Results

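miR-21a is a single mouse microRNA hairpin, and both of its mature arms, mmu-miR-21a-5p and mmu-miR-21a-3p (written without the species prefix from here on), were listed in a table of small RNAs from extracellular vesicles shed by apoptotic osteoblasts. The 2 entries were taken by name from 1712 entries, of which 1528 carried a mouse miRNA name. They were selected on measured values: the level of miR-21a-5p in the libraries of Prx1cre;SIRT6f/f mice was less far below the control level than that of most other abundant named entries, meaning those averaging 1000 RPM or more. RPM is the number of reads per 1000000 reads of the table. That comparison, and every other between the genotypes for these arms, is therefore given as a description with no test.

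The vesicles came from osteoblasts of Prx1cre;SIRT6f/f mice (3 libraries, called knockout) and of SIRT6f/f mice (3 libraries, called control). Both groups carry floxed alleles of Sirt6, the gene of a nuclear deacetylase; the knockout group also carries Cre under the Prx1 enhancer, which is active in limb mesenchyme, so Cre and the loss of Sirt6 cannot be told apart. In both groups apoptosis was induced in cultured osteoblasts, and the vesicles were pelleted from their serum-free medium by ultracentrifugation, although the extraction note speaks of cells. The labels give no age, sex or pooling of the animals, and mRNA was not measured, so the deletion itself could not be checked.

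A primary transcript is cut by Drosha to a hairpin and by Dicer to a duplex, of which usually 1 arm is kept in Argonaute as the guide and the other, the passenger, is degraded. The seed at the 5′ end of the guide pairs with target mRNAs. miR-21-5p is among the most abundant miRNAs of many mesenchymal and immune cells; its known targets include the tumour suppressor Pdcd4, it is known for promoting cell survival, and through Pdcd4 it favours osteoclast formation. TGF-beta and BMP signalling raise its processing through SMAD proteins that bind an RNA element in its precursor.

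The mature sequences are shown because the seed tells the arms and their relatives apart. They are from RefSeq on GRCm38.p6, 5′ to 3′, with the seed (bases 2 to 8) in capitals.
miR-21a-5p: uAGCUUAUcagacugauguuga
miR-21a-3p: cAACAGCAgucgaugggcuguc
miR-21c: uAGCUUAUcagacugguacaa
miR-21b: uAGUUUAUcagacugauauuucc
Both arms of miR-21a are 22 bases long, and their seeds differ. The 5p arm lies at chr11:86584120-86584141 and the 3p arm at chr11:86584082-86584103, both on the minus strand. In GENCODE M21 the hairpin (chr11:86584067-86584158) lies on the same strand within exon 12 of Vmp1, the gene of an endoplasmic reticulum protein of autophagy, in the part annotated as untranslated (chr11:86583865-86585310).

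Of 1679 mature mouse miRNAs in the reference, miR-21c was the only other one found with the seed of the 5p arm, and none shared the seed of the 3p arm. The reference was matched for 1304 of the 1528 listed names, so seed relatives among the remaining names were not searched. Counted from 1 at the 5′ end, miR-21c differs from miR-21a-5p at 5 positions over its 21 bases (A16G, G18A, U19C, U20A and G21A), all outside the seed. miR-21b, in contrast, differs inside the seed (C4U) and at 3 further positions (G18A, G21U and A22C). miR-21c had 3.26 RPM in knockout replicate 3 and was listed at 0 in the other two knockout libraries, and it had 1.44 RPM in control replicate 1 and was listed at 0 in the other two control libraries. miR-21b was not among the listed names. Among the names with a sequence in the reference, the seed of miR-21a-5p was thus represented almost wholly by miR-21a-5p itself. The sources do not state how reads that fit both miR-21a-5p and a near-identical copy were divided, so the 2 are uncertain against each other.

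Before the values, the make-up of the libraries matters. Entries with no miRNA name took 56.6% ± 5.37 of reads in the knockout group and 47.6% ± 3.85 in the control group (mean ± SD, n = 3 each). The 5 named entries miR-6236, miR-6238, miR-6239, miR-6240 and miR-3968, set apart as possible fragments of other RNAs and called fragment-like, took 7.06% ± 0.600 in the knockout and 2.67% ± 1.01 in the control group. The other named entries, called ordinary named miRNAs here, took 36.3% ± 5.56 in the knockout and 49.8% ± 2.84 in the control group. Knockout replicate 3 stood apart from the other knockout libraries, with 30.1% of its reads in ordinary named miRNAs. Since RPM is a share of all reads of a library, less of a miRNA and more of everything else cannot be told apart.

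miR-21a-5p had 21894, 27587 and 17326 RPM in knockout replicates 1, 2 and 3, and 25004, 27400 and 25255 RPM in control replicates 1, 2 and 3. The groups overlapped: knockout replicate 2 was the highest of all 6 libraries, and knockout replicates 1 and 3 lay below every control library. The mean was 22269 ± 5140 RPM in the knockout and 25887 ± 1317 RPM in the control group (SD, n = 3 each), so the knockout libraries varied more (coefficient of variation 23.1%, against 5.09% in the control group). Each value rests on 31850 to 48836 reads, and counting error is small beside that spread: the 95% Poisson interval in knockout replicate 3 was 17137 to 17518 RPM.

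The log2 difference, knockout minus control on the log2(RPM + 1) scale, was -0.24 ± 0.34 (SE from limma), a ratio of 0.846. Its direction depended on the scaling, since the difference was 0.22 when the libraries were scaled to ordinary named miRNAs, 0.036 with scaling to all named entries and -0.06 with centring on the median. These scalings moved the median of all 1114 entries tested, which was -0.27, by 0.33, 0.19 and 0.18 on the log2 scale. Without knockout replicate 3 the difference was -0.07, and without knockout replicate 2 it was -0.41.

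As a share of ordinary named miRNA reads, miR-21a-5p took 5.75%, 6.76% and 5.76% in knockout replicates 1, 2 and 3. It took 4.71%, 5.71% and 5.24% in control replicates 1, 2 and 3. On this scale every knockout library lay above every control library, as was the case in either direction for 23.1% of the 1114 entries tested, and with the knockout higher for 14.4%. The gap between the lowest knockout and the highest control library was within counting error, with 95% Wilson intervals of 5.69% to 5.81% for knockout replicate 1 and 5.65% to 5.76% for control replicate 2. The mean share was 6.09% ± 0.584 in the knockout and 5.22% ± 0.496 in the control group (SD, n = 3 each). Measured against all named entries, fragment-like ones included, the shares were 5.09% ± 0.651 in the knockout and 4.96% ± 0.544 in the control group and overlapped.

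**Figure D1:**
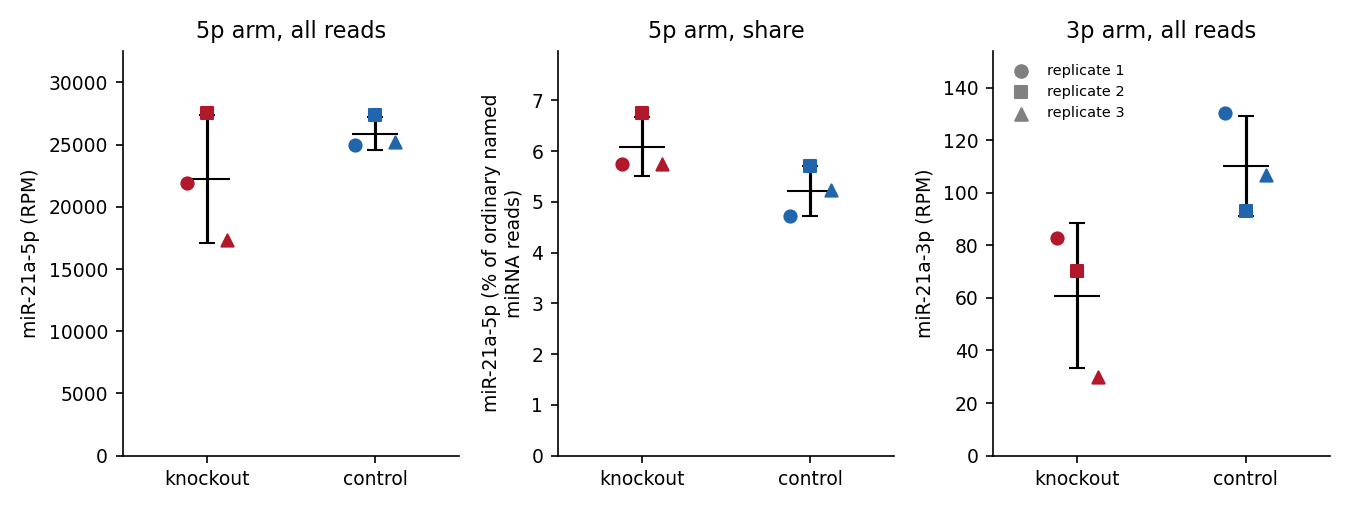
miR-21a-5p in RPM (left) and as percent of ordinary named miRNA reads (middle), and miR-21a-3p in RPM (right), by library; points are libraries with a symbol for each replicate number, horizontal lines are group means and bars are SD (n = 3 each). The 5p arm overlaps between the groups in RPM, and its share is 5.75% to 6.76% in knockout and 4.71% to 5.71% in control libraries; the 3p arm lies at 29.9 to 82.7 RPM in knockout and 93.2 to 130 RPM in control libraries.

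In the order of abundance miR-21a-5p kept a high place in both genotypes. By the mean over all libraries it was the 6th named entry and the 13th of all entries, at 24078 RPM. Among named entries its rank was 8, 4 and 6 in knockout replicates 1, 2 and 3, and 8, 7 and 7 in control replicates 1, 2 and 3. Rank 4 in knockout replicate 2 rested on a near tie, since miR-21a-5p had 48836 reads there and miR-26a-5p had 48831. In knockout replicate 3 the entries above it were miR-7215-5p, miR-542-3p, miR-6239, miR-6236 and miR-99a-5p, whereas in the control libraries the places above it were held by miR-99a-5p, miR-143-3p, miR-26a-5p, miR-125b-5p, miR-199a-5p, miR-100-5p and, in control replicate 1, miR-99b-5p. The rank among all entries was 15, 10 and 15 in the knockout and 14, 12 and 14 in the control libraries.

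The named neighbours just above it by mean were miR-26a-5p, an Ezh2-targeting miRNA (30951 RPM), miR-125b-5p of the lin-4 family (29515 RPM) and miR-199a-5p, a mesenchymal miRNA (26201 RPM). Those just below it were miR-100-5p (23554 RPM) and miR-99b-5p (22973 RPM), both of the miR-99 family, and the fragment-like miR-6239 (22674 RPM). Within the knockout group the mean of miR-21a-5p lay within the combined spread of the 5 most abundant named miRNAs and of miR-100-5p and miR-99b-5p. The SD was 5140 RPM for miR-21a-5p and 4608 to 9744 RPM for these 7. Such SDs are between libraries and leave out that the miRNAs share each library. In every knockout library the ratio of miR-21a-5p to miR-99a-5p was below 1 (0.704 to 0.879). Its ratios to miR-100-5p (1.08 to 1.46) and miR-99b-5p (1.05 to 1.34) were above 1. For the rest of the 7 they lay on both sides of 1. Within the control group the mean of miR-21a-5p lay below that of miR-199a-5p (31952 ± 3659 RPM) by more than the SD of either. Its distance to miR-100-5p (28974 ± 2794 RPM) and miR-99b-5p (27354 ± 4362 RPM) was close to or within their SDs. In every control library, however, the ratio of miR-21a-5p to miR-100-5p was below 1 (0.780 to 0.968).

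Ratios between 2 miRNAs of the same library do not depend on what the reads are scaled to. The ratio of miR-21a-5p to miR-99a-5p, the most abundant named miRNA, was 0.704, 0.785 and 0.879 in knockout replicates 1, 2 and 3, and 0.479, 0.594 and 0.581 in control replicates 1, 2 and 3. All knockout libraries lay above all control libraries. Its ratio to miR-143-3p, a smooth muscle and mesenchymal miRNA, was 0.823, 0.936 and 1.53 in the knockout libraries and 0.632, 0.690 and 0.628 in the control libraries, again with no overlap and with knockout replicate 3 far above the rest. Its ratio to miR-26a-5p was 0.978 ± 0.131 in the knockout and 0.673 ± 0.0743 in the control group (SD, n = 3 each), with no overlap. Its ratio to miR-199a-5p was 1.11 ± 0.183 in the knockout and 0.819 ± 0.126 in the control group, and these overlapped.

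**Figure D2:**
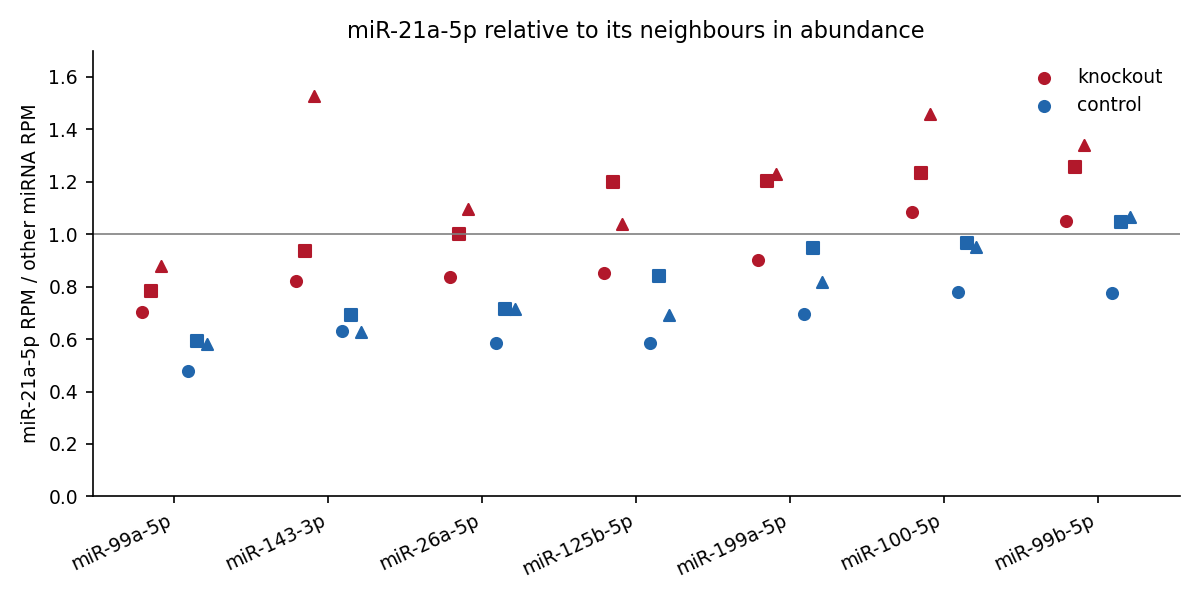
Ratio of the RPM of miR-21a-5p to that of the 5 most abundant named miRNAs and of miR-100-5p and miR-99b-5p, in each library; the symbol gives the replicate number as circle, square and triangle for 1, 2 and 3, and the line marks a ratio of 1. Knockout libraries lie above all control libraries for 5 of the 7 partners, and overlap with them for miR-199a-5p and miR-99b-5p.

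Over the 50 other abundant named entries, the ratio of miR-21a-5p to the other entry was higher in all knockout than in all control libraries for 29 (58%) and lower for 8 (16%). Of all 1275 ratios between 2 of these 51 abundant entries, the groups did not overlap, in either direction, for 711 (55.8%). The 55.8% counts both directions, so its counterpart for miR-21a-5p is the sum of the 58% and the 16%. Without knockout replicate 3 the numbers for miR-21a-5p were 29 higher and 9 lower. Of all 1275 ratios, the groups then did not overlap for 767 (60.2%). With all libraries, the 8 lower ones were the ratios to miR-6236, miR-494-3p, miR-542-3p, miR-6239, miR-6238, miR-6937-5p, miR-5099 and miR-2137. The ratios share their numerator and are not independent of each other.

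In log2 differences of RPM, 37 of the 50 other abundant entries lay below 0 and 13 above, with a median of -0.58, against -0.27 over all entries tested. With scaling to ordinary named miRNAs 32 lay below 0 and 18 above, with a median of -0.12, against 0.06 over all entries tested; with scaling to all named entries 34 lay below 0 and 16 above, with a median of -0.30, against -0.07. Few of them passed the test: limma called 6 of the 51 abundant entries lower (11.8%) and 6 higher (11.8%), against 2.69% lower and 2.15% higher among all entries tested. Without the fragment-like entries these were 6 lower (12.8%) and 3 higher (6.38%) of 47. The 221 ordinary named entries tested with a mean of 10 to 1000 RPM, miR-21a-3p left out, had a median of -0.59. Of these 221, 176 lay below 0, and limma called 22 lower and 7 higher. Without control replicate 3 limma called 0 of the 50 others, and with scaling to ordinary named miRNAs it called 0 lower and 7 higher. Among those called lower were miR-29a-3p, known for targeting collagen mRNAs (-1.12, limma adjusted p = 0.00664), and miR-22-3p (-0.95, limma adjusted p = 0.0378). Most of the 50 others did not pass the threshold in either direction.

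miR-21a-5p was 15th of the 51 in the order of log2 differences, with 14 above it and 36 below it. It lay 0.34 above the median of the other 50, a gap that scaling leaves at 0.34 and that ranged from 0.27 to 0.42 when libraries were left out. Against the 46 without the fragment-like entries the gap was 0.43, and against the 19 others with a mean of at least 5000 RPM it was 0.49. Measured the other way, as the distance in each library from miR-21a-5p to the median log2 RPM of the other 50, it was 2.66, 2.86 and 2.63 in knockout replicates 1, 2 and 3, and 2.46, 2.86 and 2.58 in control replicates 1, 2 and 3. These distances overlap and their means differ by less than their spread (2.72 in the knockout and 2.64 in the control group), so the gap depends on whether differences are taken entry by entry or against the middle of each library.

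Above miR-21a-5p in that order were miR-6236 (1.96), miR-494-3p (1.89), miR-542-3p (1.43), miR-6239 (1.39), miR-6238 (1.30), miR-6937-5p (1.27), miR-5099 (0.81), miR-6240 (0.50), miR-5112 (0.40), miR-7215-5p (0.33), miR-3106-5p (0.28), miR-145a-5p (0.11), miR-2137 (0.08) and miR-10a-5p (-0.16), all as log2 differences, of which the first 6 passed the limma threshold. Just below it were miR-6396 (-0.26), miR-182-5p (-0.27) and miR-34c-5p (-0.39). The distance of these 3 from miR-21a-5p was below 0.34, the SE of the difference of miR-21a-5p itself, which is not an SE of the distance between 2 entries. For the ratio of miR-21a-5p to each of these 3, the groups overlapped. Of the 5 miRNAs more abundant than miR-21a-5p, all had a lower difference, between -0.94 for miR-143-3p and -0.68 for miR-199a-5p, and none passed the threshold. At the limit of 1000 RPM, the entries just inside were miR-6238 (1170 RPM) and miR-145a-5p (1033 RPM, log2 difference 0.11), and those just outside were miR-30e-5p (997 RPM, -0.30) and miR-183-5p (923 RPM, -0.29).

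**Figure D3:**
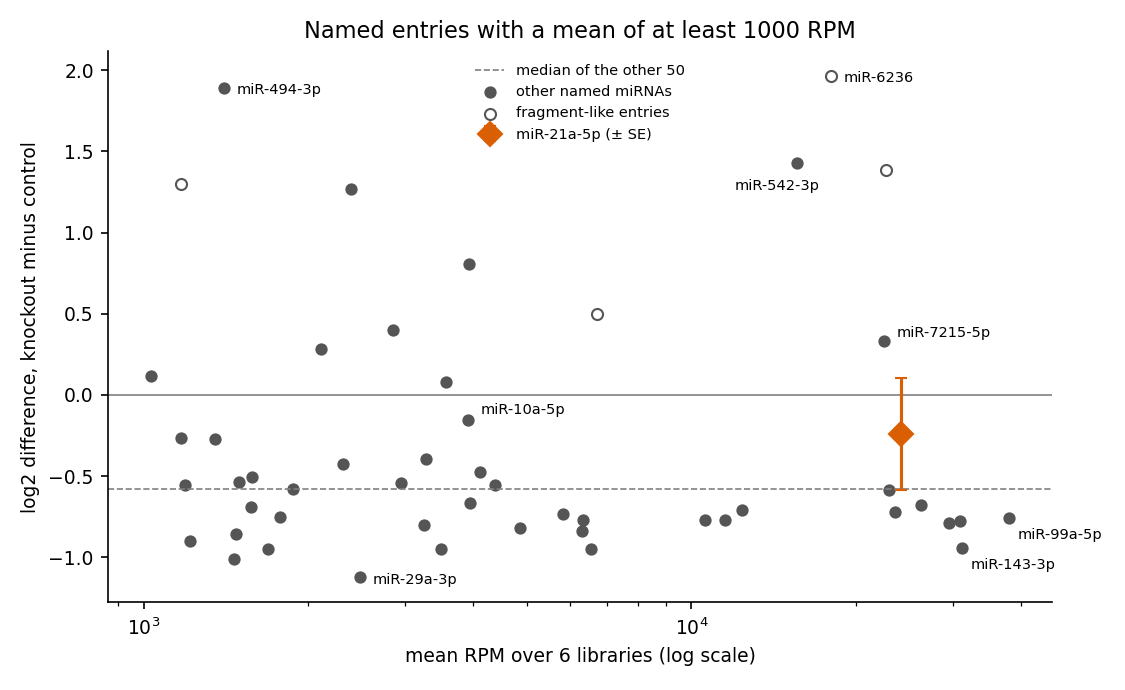
Log2 difference, knockout minus control, of the 51 abundant named entries against their mean RPM on a log scale; the diamond is miR-21a-5p with its SE, open circles are fragment-like entries and the dashed line is the median of the other 50. miR-21a-5p at -0.24 lies above the dashed line at -0.58 and above its neighbours in abundance other than miR-6239, miR-7215-5p, miR-542-3p and miR-6236.

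The 3p arm was rare. miR-21a-3p had 82.7, 70.0 and 29.9 RPM in knockout replicates 1, 2 and 3, and 130, 93.2 and 107 RPM in control replicates 1, 2 and 3. Every knockout library lay below every control library; over all entries tested the groups did not overlap, in either direction, for 25.6%, and with the knockout lower for 19.3%. The values rest on 55 to 181 reads, so counting error is not small here. The 95% Poisson interval was 69.2 to 98.0 RPM in knockout replicate 1 and 77.6 to 111 RPM in control replicate 2, which overlap, and 22.5 to 38.9 RPM in knockout replicate 3.

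The mean was 60.9 ± 27.6 RPM in the knockout and 110 ± 18.9 RPM in the control group (SD, n = 3 each). The log2 difference was -0.95 ± 0.34 (SE from limma), and -0.51 without knockout replicate 3. With scaling to ordinary named miRNAs it was -0.50, with scaling to all named entries -0.68 and with centring on the median -0.77. For comparison, the 60 ordinary named entries tested within 2-fold of its mean RPM had a median log2 difference of -0.58, 46 of them lay below 0, and 9 lay below miR-21a-3p. As a share of ordinary named miRNA reads the groups overlapped, at 0.0163% ± 0.00594 in the knockout and 0.0221% ± 0.00260 in the control group. By the mean over all libraries it was the 135th named entry, with ranks of 133, 145 and 169 in the knockout and 126, 136 and 132 in the control libraries.

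The arm ratio shows how far the 5p arm outweighed the 3p arm. In RPM, with 1 added to each, the ratio of 5p to 3p was 262, 388 and 560 in knockout replicates 1, 2 and 3, and 190, 291 and 234 in control replicates 1, 2 and 3. Knockout replicate 1 lay below control replicate 2, so the groups overlapped, while knockout replicates 2 and 3 were above all control libraries. The 3p arm made up 0.267% ± 0.103 of the reads of both arms in the knockout and 0.427% ± 0.0902 in the control group (SD, n = 3 each). The ratio does not depend on the scaling beyond the added 1. On the log2 scale it was 8.59 ± 0.55 in the knockout and 7.88 ± 0.31 in the control group, a difference of 0.71 ± 0.36 (SE from the library values), and 0.44 without knockout replicate 3.

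Set beside the 36 hairpins with both arms listed under 1 name and each arm at a mean of at least 10 RPM, miR-21a ranked 3 in mean log2 ratio of 5p to 3p, at 8.23. Above it were let-7i (10.32) and miR-99b (9.59), and below it let-7b (7.75), miR-125a (6.37) and miR-34c (5.53). At the other end, miR-143 (-8.14) and miR-140 (-6.56) kept almost only the 3p arm. The difference of miR-21a between the genotypes was the 5th of 36 in order; larger ones were those of miR-107 (1.47), miR-144 (1.35), miR-145a (1.001) and miR-221 (0.88). The log2 ratio was higher in the knockout group for 25 of the 35 other hairpins, with a median difference of 0.14. The groups did not overlap for 7 hairpins (19.4%), and miR-21a was not among them. For let-7i the 3p arm had a mean of 10.1 RPM, so its ratio rests on few reads. The minimum of 10 RPM leaves out hairpins with a rarer 3p arm, such as let-7e (mean 1571 RPM for 5p and 3.15 RPM for 3p). The rank of miR-21a therefore holds only among these 36 hairpins.

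**Figure D4:**
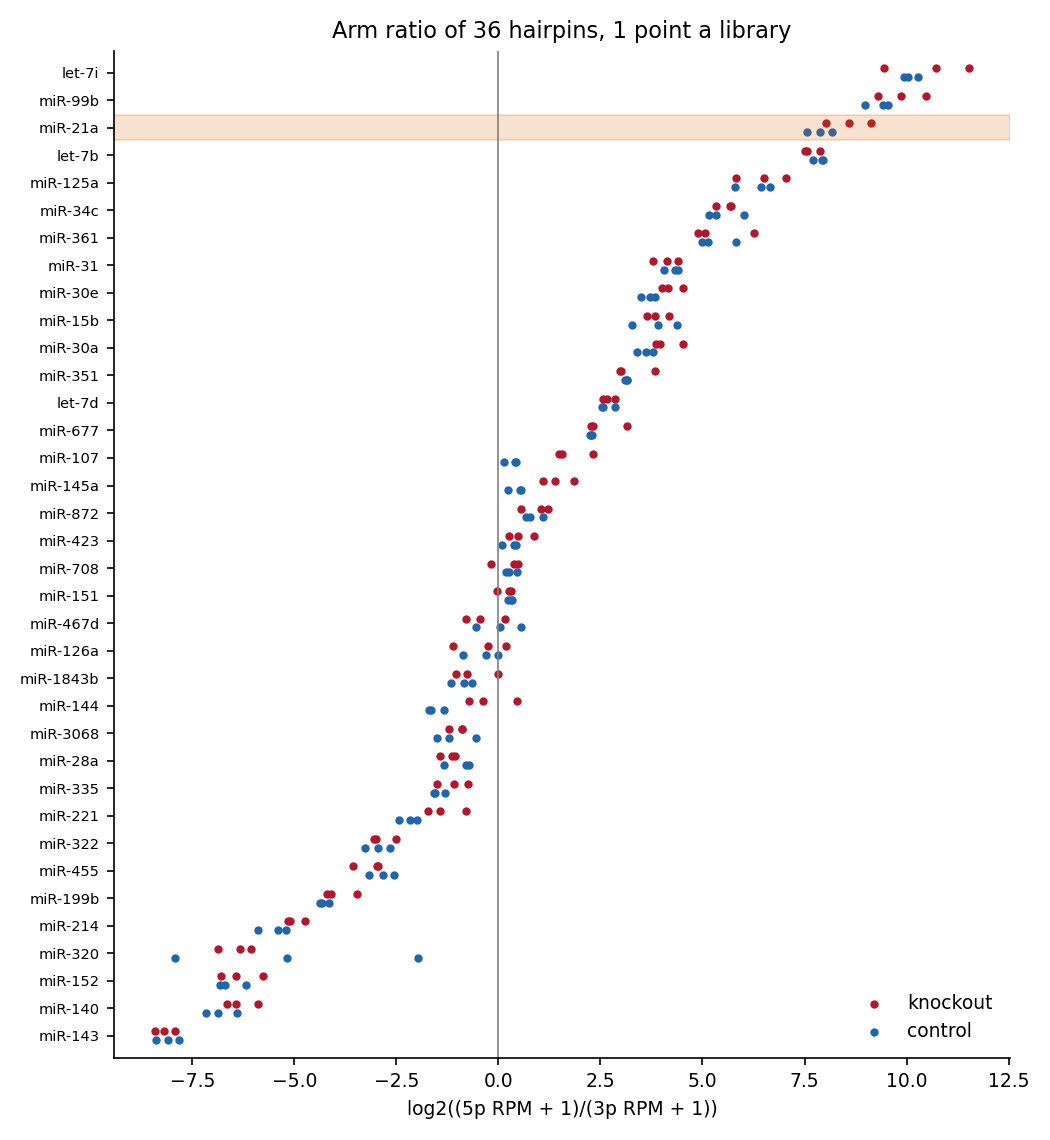
Log2 ratio of 5p to 3p, each with 1 RPM added, of 36 hairpins in order of their mean, with 1 point a library, knockout above control in each row; the shaded row is miR-21a. miR-21a lies just under let-7i and miR-99b, at 8.03 to 9.13 in knockout and 7.57 to 8.18 in control libraries, which overlap.

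Over the 6 libraries, the abundant named entries whose log2(RPM + 1) followed that of miR-21a-5p most closely were let-7g-5p (Pearson's r = 0.97, Spearman's rho = 0.60), miR-34c-5p (r = 0.94, rho = 0.60), let-7i-5p (r = 0.92, rho = 0.66), miR-182-5p (r = 0.91, rho = 0.43) and miR-152-3p (r = 0.90, rho = 0.60). These are descriptions over 6 libraries that share their totals, and the median r over all 50 was 0.83. Without knockout replicate 3 the values of r were 0.87, 0.69, 0.60, 0.52 and 0.46 in the same order. With scaling to ordinary named miRNAs they were 0.49, 0.74, 0.02, 0.79 and -0.07, so the likeness to let-7i-5p and miR-152-3p was not seen on that scale. Between the 5p and the 3p arm of miR-21a, r was 0.77 and rho 0.20.

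The RNA element bound by SMAD proteins, CAGAC, lies at bases 9 to 13 of miR-21a-5p. The tested miRNAs that hold the same letters, other than the fragment-like miR-3968 and those under 10 RPM, are shown with the letters in capitals.
miR-21a-5p: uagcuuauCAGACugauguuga
miR-199a-5p: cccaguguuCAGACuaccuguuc
miR-214-3p: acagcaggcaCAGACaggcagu
miR-215-5p: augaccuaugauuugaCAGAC
The letters were searched on the RNA strand as written and occur in 28 of the 1679 mature sequences (1.67%). A match is a description of the sequence and says nothing of binding. Of the 28, 19 were listed and 9 were tested. Of the 8 tested other than miR-21a-5p, limma called 2 lower and 0 higher, against 2.69% and 2.15% of all entries tested. The 2 lower ones were the fragment-like miR-3968 and miR-214-3p, which had 417 ± 177 RPM in the knockout and 807 ± 91.0 RPM in the control group (log2 difference -1.05 ± 0.29 SE, limma adjusted p = 0.0118). miR-199a-5p had 20450 ± 5545 RPM in the knockout and 31952 ± 3659 RPM in the control group (-0.68 ± 0.35, limma adjusted p = 0.2495), and miR-215-5p had 70.8 ± 32.6 RPM in the knockout and 59.8 ± 9.10 RPM in the control group (0.16 ± 0.35, limma adjusted p = 0.818). The median log2 difference of the 8 tested other than miR-21a-5p was -0.19, against -0.27 over all entries tested. These 8 include the fragment-like miR-3968 and miRNAs under 10 RPM, whose differences rest on few reads.

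Other miRNAs known for roles in cell survival are given by their counts beside those of all 1114 entries tested, of which limma called 2.69% lower and 2.15% higher; counts this small say little about lists of 10. Of 10 survival-associated miRNAs from the miR-17 and miR-25 polycistrons, the miR-221 and miR-222 pair and miR-155-5p, 0 were called in either direction by limma; 7 lay below 0, and the median log2 difference was -0.46. At an unadjusted p under 0.05, 60 of all 1114 entries were higher and 163 lower. Of the 10 survival-associated miRNAs, miR-25-3p was the most abundant. It had 573 ± 239 RPM in the knockout and 974 ± 132 RPM in the control group (-0.86 ± 0.29, limma adjusted p = 0.0520). The summed level of the list was 919 to 1705 RPM in the knockout and 2116 to 2526 RPM in the control libraries, so that miR-21a-5p alone was more abundant than all 10 together in every library.

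Of 10 apoptosis-promoting miRNAs of the miR-15, miR-34 and miR-29 families, limma called 1 lower and 0 higher, against 2.69% lower and 2.15% higher of all entries tested. Of the 10, 9 lay below 0, with a median of -0.44. The median was -0.27 over all entries tested and -0.59 over the 221 ordinary named entries tested with a mean of 10 to 1000 RPM. The 1 called lower was miR-29a-3p, with 1601 ± 559 RPM in the knockout and 3361 ± 609 RPM in the control group. miR-34c-5p, a p53 target, had 2855 ± 646 RPM in the knockout and 3687 ± 246 RPM in the control group (-0.39 ± 0.30, limma adjusted p = 0.529). Of 8 miRNAs with roles in osteoclasts, the bone-resorbing cells, limma called 1 lower, miR-214-3p, and 0 higher, with a median of -0.69, beside the same shares of all entries. The macrophage and osteoclast miRNA miR-223-3p was at 0.979 ± 0.878 RPM in the knockout and 2.21 ± 2.67 RPM in the control group, near the level of 3 reads (1.63 to 2.22 RPM, depending on the library).

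Since miR-21-5p is also abundant in macrophages and other leukocytes, markers of other cells were set beside it. The 6 leukocyte markers summed to 1167 to 1845 RPM in the knockout and 2137 to 2387 RPM in the control libraries. Most of this was miR-146a-5p, which is not confined to leukocytes and had 1521 ± 339 RPM in the knockout and 2231 ± 148 RPM in the control group. The more selective miR-142a-3p had 0.753 ± 1.30 RPM in the knockout and 0.721 ± 1.25 RPM in the control group, while its partner arm miR-142a-5p had 17.3 ± 4.95 RPM in the knockout and 38.5 ± 12.2 RPM in the control group. The 3 listed red blood cell markers summed to 237 to 431 RPM in the knockout and 551 to 820 RPM in the control libraries, and limma called 2 of them lower, miR-486b-5p (log2 difference -1.03, limma adjusted p = 0.0172) and miR-144-3p (-1.47, limma adjusted p = 0.0236), against 2.69% of all entries tested. Among the 221 ordinary named entries tested with a mean of 10 to 1000 RPM, limma called 22 lower. Over the whole table the lower calls numbered 30 with RPM and 2 with scaling to ordinary named miRNAs. The 2 endothelial markers, both arms of miR-126a, summed to 15.2 to 26.7 RPM in the knockout and 47.9 to 63.6 RPM in the control libraries. limma called 0 of these 2, and 0 of the 5 leukocyte markers tested, in either direction. For comparison, the groups did not overlap, with the knockout lower, for 19.3% of all entries tested. The part of leukocytes, red blood cells and endothelium in the level of miR-21a was not tested.

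The 7 listed mesenchymal markers, which fit the osteoblast label but do not single out osteoblasts, summed to 29658 to 59878 RPM in the knockout and 78382 to 86483 RPM in the control libraries. Most of this was miR-143-3p (22459 ± 9744 RPM in the knockout and 39837 ± 336 RPM in the control group) and miR-199a-5p. All ordinary named miRNAs together took 36.3% of reads in the knockout and 49.8% in the control group. Of the 7, 5 lay below 0 and 2 above, miR-145a-5p (0.11) and miR-218-5p (1.37). limma called 1 of the 7 lower, miR-214-3p, and 0 higher, against 2.69% lower and 2.15% higher of all entries tested. Their median log2 difference was -0.68, against -0.27 over all entries tested and -0.59 over the 221 ordinary named entries tested with a mean of 10 to 1000 RPM.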

How the data were processed

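The authors deposited 1 table of RPM values for 6 libraries, each summing to 1000000. The submitters' processing notes name fastp and edgeR without a role; the aligner, annotation release and build are not stated in the labels. Per column, values were whole multiples of 0.5 of the smallest value above 0 (tolerance 0.001 read), so that value stands for 2 reads and entries at 1 read are missing; no count test was run. Libraries held 1352045 to 1838239 reads, and intervals cover counting error only.

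Entries with at least 1 RPM in at least 3 libraries (1114 of 1712) were fitted with limma 3.58.1 (R 4.3.3), with the variance modelled on mean level, on log2(RPM + 1). Tests were 2-sided, Benjamini-Hochberg adjusted over all 1114, threshold 0.05. The spread was pooled over entries (4456 degrees of freedom), so an SE hardly reflects an entry's own replicates. The script was tested on simulated data. Titles gave the groups; no label ties replicates to different animals or cultures, so each p-value measures only the spread of these libraries, which may be technical. The members and lists were chosen with earlier results of these data known. Named miRNAs were those next to miR-21a in abundance, difference, arm ratio and pattern, its seed relatives and list members. Sequences are from RefSeq (GRCm38.p6), matched for 1304 of 1528 names. Alternatives were pseudocounts, filters, scalings, abundance minimums, a robust prior, a replicate block and leaving out each library.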

Additional observations from a re-analysis of the deposited data

How the results depend on the processing

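The log2 difference of miR-21a-5p was 0.22 with scaling to ordinary named miRNAs and 0.036 with scaling to all named entries, against -0.24 with RPM; the cause was not tested. Its share differed by 0.868 percentage points of ordinary named reads, by 0.132 points of all named reads and by -0.362 points of all reads. Leaving out each library gave -0.41 to -0.07 for the 5p arm, -1.23 to -0.51 for the 3p arm, 0.44 to 0.99 for the arm ratio, 0.27 to 0.42 for the distance to other abundant miRNAs and 0.531 to 1.11 points for the share. Other pseudocounts, filters and a robust prior moved the differences of both arms, the arm ratio and the distance by less than the spread between replicates; they do not enter the share.

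The counts of entries called over the whole table were less stable. limma called 24 higher and 30 lower. With a pseudocount of 0.1 these were 9 and 1, and with a pseudocount of 10 they were 23 and 27. They were 21 and 15 with no filter, and 26 and 61 with at least 1 RPM in all 6 libraries. Scaling to ordinary named miRNAs gave 38 and 2, and scaling to all named entries gave 28 and 5. Centring on the median gave 32 and 8, and a robust prior gave 22 and 17. Leaving out each library gave 0 to 26 higher and 0 to 18 lower; without control replicate 3 there were 0 calls (before adjustment, p was under 0.05 for 53 higher and 84 lower) and without control replicate 2 there were 6 higher and 0 lower. With the replicate block, 19 were higher and 11 lower, and the log2 differences of miR-21a were the same. Deviations from the group means were not correlated between libraries with the same number (r = 0.01, -0.02 and 0.01). These r values weigh all entries tested alike, many of them with few reads, so they cannot tell whether the numbers pair the libraries. The planned edgeR and DESeq2 fits were not run: reads came out whole when the lowest value was taken as 2 reads, but entries at 1 read are missing. Depth limits the 3p arm, at 55 to 181 reads. For the RPM of the 5p arm counting error is small beside the spread between libraries. It does cover the gap between the groups in the share of ordinary named reads and the near tie in rank in knockout replicate 2.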
